A study of Arabidopsis thaliana with 8 samples.

Results

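PORB, CHLM, LHCB4.1 and RCA are 4 nuclear genes whose products make chlorophyll, bind it in a light-harvesting antenna or keep the carbon-fixing enzyme Rubisco active. They were chosen by name with their signals on these arrays already known, so their own values are given as a description, with standard errors and without tests. The platform annotation pairs 1 probe set with each gene and none of these with a further gene. Thus 4 probe sets stood for 4 of the 13350 genes that it pairs with a probe set of their own. It does not list 8730 probe sets, so others for these genes may exist. All 4 probe sets lay above the filter on low signals.

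Total RNA from Arabidopsis thaliana rosettes was measured on 8 ATH1 arrays, which carry 22746 oligonucleotide probe sets when controls are left aside. The reference accession Col-0 was measured on 2 arrays, called Col-0-L and Col-0-S here after endings of their titles that the labels leave unexplained. The other 6 arrays each held 1 WRKY T-DNA knockout line (KO-02, KO-07, KO-30, KO-40, KO-54 and KO-56), in a study of how WRKY transcription factors of group II-A bear on early senescence of leaves. All plants, the Col-0 controls included, were 35 days old and just bolting, were sampled as the whole rosette without stem and flowers, and grew in a chamber (70% humidity, 22 °C days, 19 °C nights) in soil to which imidacloprid (Confidor) and Osmocote fertiliser had been added. The labels do not give the disrupted gene of any line, and the line numbers were not read as gene numbers. With 1 array a line, a line could not be told apart from its array. Separate plantings for the arrays of a group are not stated in the labels, so errors and p-values cover the spread among these arrays alone and that may be technical. Whole rosettes are a mixture of cells, and fewer green cells cannot be told apart from less RNA per green cell.

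Chlorophyll is built in plastids from glutamate through a chain of tetrapyrrole intermediates. After magnesium has been inserted, a methyltransferase (CHLM) acts on the ring, and protochlorophyllide oxidoreductases (PORB is one) use light to reduce protochlorophyllide to chlorophyllide. LHCB4.1 encodes CP29, a minor antenna protein that links the main light-harvesting complex to photosystem II, and RCA encodes Rubisco activase, which frees the active sites of Rubisco from inhibitory sugar phosphates. The loss of chlorophyll and of these transcripts is a familiar mark of leaf senescence.

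The probe sets of 3 of the genes were among the brightest of the array. Ranked from the brightest of the 22746 probe sets, LHCB4.1 stood between 12 and 37 on the 8 arrays, RCA between 41 and 53 and PORB between 66 and 121. CHLM stood between 550 and 800, outside the brightest 1%. Probe sets differ in brightness for equal amounts of RNA, so these ranks place the signals on the array and do not order the transcripts by amount. Root material was checked with PYK10, a beta-glucosidase known from roots, at 58.4 in Col-0-L, 42.3 in Col-0-S and 19.9 to 42.0 in the lines, and with EXPA7, a root hair expansin, at 2.17 to 14.8, below the filter. PYK10 was thus lower in all 6 lines than on both Col-0 arrays, and its part in the results was not tested. These were 2 of the 5 root markers looked for, and none of the 7 flower markers was paired with a probe set in the annotation used here.

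Relative to the Col-0 level, PORB showed the widest difference between Col-0 and the lines among the 4 genes. Its signal, an intensity on the linear scale to which the authors set every array, was 3168 on Col-0-L and 2665 on Col-0-S. In the lines it was 2610 in KO-02, 2475 in KO-07, 2143 in KO-54, 2117 in KO-40, 2593 in KO-30 and 2591 in KO-56. Every line was thus lower than either Col-0 array, although KO-02, KO-30 and KO-56 came close to Col-0-S. The mean was 2917 ± 356 (SD, n = 2) for Col-0 and 2422 ± 231 (SD, n = 6) for the lines, so the lines held 83.0% of the Col-0 level. The difference between the means, 495 units, was slightly smaller than the gap of 503 units between the Col-0 arrays. On the log2(signal + 5) scale the lines were lower by a difference of -0.27 ± 0.13 (SE). Of all 15922 probe sets past the filter, 3.1% had all 6 lines below both Col-0 arrays and 3.13% had all 6 above, and since PORB was chosen with this pattern known nothing is read from its place among them.

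CHLM, the other chlorophyll synthesis gene, differed in shape: the Col-0 arrays were nearly equal and the lines spread out. The signal was 985 on Col-0-L and 994 on Col-0-S. It was 856 in KO-02, 858 in KO-07, 918 in KO-54, 725 in KO-40, 1002 in KO-30 and 895 in KO-56. KO-30 lay just above both Col-0 arrays and the other 5 lines lay below both. The means were 989.6 ± 6.05 (SD, n = 2) and 876 ± 90.9 (SD, n = 6), or 88.5% of the Col-0 level, with a log2 difference of -0.18 ± 0.13 (SE). The Col-0 arrays were 8.56 units apart, and all 6 lines stood farther than that from the Col-0 mean. A pair of arrays gives a poor estimate of spread, and so small a gap was not seen for the other 3 genes.

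LHCB4.1, the antenna gene of the group, had Col-0 arrays that were far apart. The signal was 4740 on Col-0-L and 3958 on Col-0-S. In the lines it was 3965 in KO-02, 3846 in KO-07, 3883 in KO-54, 3442 in KO-40, 3603 in KO-30 and 4079 in KO-56. Col-0-L stood above every line, while KO-02 and KO-56 lay between the Col-0 arrays and the other 4 lines below both. The means were 4349 ± 553 (SD, n = 2) and 3803 ± 237 (SD, n = 6), or 87.4% of the Col-0 level, and the log2 difference was -0.19 ± 0.12 (SE). The gap of 782 units within Col-0 exceeded the 546 units between the means.

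RCA, the carbon fixation gene of the group, overlapped most between Col-0 and the lines. The signal was 4030 on Col-0-L and 3081 on Col-0-S. It was 3256 in KO-02, 3117 in KO-07, 3227 in KO-54, 2710 in KO-40, 3347 in KO-30 and 3266 in KO-56. Only KO-40 lay below both Col-0 arrays, and the other 5 lines lay between them, above Col-0-S. The means were 3556 ± 671 (SD, n = 2) and 3154 ± 229.97 (SD, n = 6), or 88.7% of the Col-0 level, with a log2 difference of -0.16 ± 0.13 (SE). The 949 units between the Col-0 arrays were more than the 402 units between the means, and no line stood farther from the Col-0 mean than the Col-0 arrays stood from each other.

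**Figure D1:**
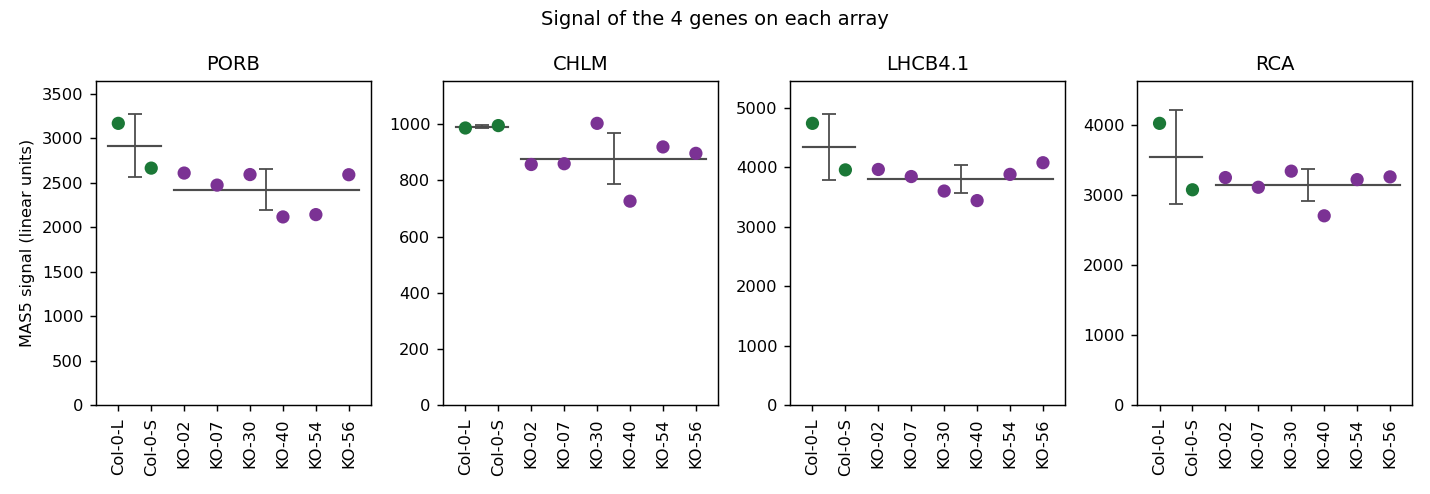
Signal (deposited intensity, linear axis) of PORB, CHLM, LHCB4.1 and RCA on each of the 8 arrays, with Col-0 in green and the 6 WRKY T-DNA knockout lines in purple, horizontal bars at the group means and error bars of 1 SD. For PORB every line is below both Col-0 arrays, for RCA only KO-40 does.

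Ordered by level, the arrays formed few separate steps. Col-0-L was the highest array for PORB, LHCB4.1 and RCA and KO-30 was the highest for CHLM, while KO-40 was the lowest array for all 4 genes. With the SD over the 6 lines as the measure of spread, 2 of the 7 neighbouring pairs in the order of PORB were farther apart than that, namely Col-0-L over Col-0-S and KO-07 over KO-54. For CHLM this held for 1 pair, KO-02 over KO-40, by 130 units. For LHCB4.1 it held for Col-0-L over KO-56, by 661 units, and for KO-07 over KO-30, by 244. For RCA it held for Col-0-L over KO-30, by 683 units, and for Col-0-S over KO-40, by 372. The remaining neighbours did not differ beyond that spread. From the lowest to the highest line the signal spanned 1.18-fold for LHCB4.1, 1.23-fold for PORB, 1.24-fold for RCA and 1.38-fold for CHLM.

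Each line was also set against Col-0 on its own, in comparisons that share the same 2 Col-0 arrays and are therefore not independent. Their errors come from the spread within the Col-0 pair and among the other lines, so differences between those lines are part of them. KO-40 was lower for every gene, with log2 differences of -0.46 ± 0.19 (SE) for PORB, -0.45 ± 0.17 for CHLM, -0.33 ± 0.17 for LHCB4.1 and -0.38 ± 0.19 for RCA. In KO-54 PORB was lower by about as much (-0.44 ± 0.19), and the other genes differed by -0.11 for CHLM, -0.16 for LHCB4.1 and -0.13 for RCA. In KO-30 the gene with the largest difference was LHCB4.1 (-0.27 ± 0.17), with -0.16 for PORB, -0.07 for RCA and 0.02 for CHLM. In KO-07 the 4 differences lay between -0.23 for PORB and -0.17 for LHCB4.1, and in KO-02 between -0.21 for CHLM and -0.11 for RCA. KO-56 came nearest to Col-0 for LHCB4.1 (-0.09), with -0.17 for PORB, -0.14 for CHLM and -0.11 for RCA. Col-0-L minus Col-0-S, measured in the same way, gave 0.25 for PORB, -0.01 for CHLM, 0.26 for LHCB4.1 and 0.39 for RCA.

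None of the 4 genes was among the few probe sets called by limma (Benjamini-Hochberg adjusted p under 0.05) in these comparisons. The fit ran over all probe sets, and the 4 genes were chosen with their values known. It is therefore not a test of them. Among 15922 probe sets, 0% were called for the 6 lines together, for KO-02, for KO-07, for KO-40 and for Col-0-L against Col-0-S. For KO-54 it was 0.0691%, and for KO-30 and KO-56 it was 0.00628% each. Without adjustment, 593 probe sets had a p under 0.05 for the 6 lines together, 364 for KO-02, 263 for KO-07, 1676 for KO-54, 1064 for KO-40, 1350 for KO-30, 876 for KO-56 and 520 between the Col-0 arrays.

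The arrays themselves differed at the bright end, where PORB, LHCB4.1 and RCA lie. Although every array had the same trimmed mean signal (100.01) and medians between 36.0 and 39.1, the 99th percentile was 1765 in Col-0-L and 1539 in KO-40, with the other arrays between 1579 and 1712. The brightest probe set reached 6010 in Col-0-L and 4100 in KO-40. Over the brightest 1% of probe sets (227) the lines were lower than Col-0 by a median log2 difference of -0.11, with 89.0% of them lower, and Col-0-L exceeded Col-0-S by 0.22. KO-40 differed from Col-0 by -0.26 over these probe sets. The 3' ubiquitin control was 3466 in Col-0-L and 2618 in KO-40, the highest and lowest of the 8 arrays, as for PORB, LHCB4.1 and RCA. The 3' actin control was also lowest in KO-40 (1138), but it was highest in KO-54 (1576). For actin, KO-30 (1558) also lay above Col-0-L (1533).

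**Figure D2:**
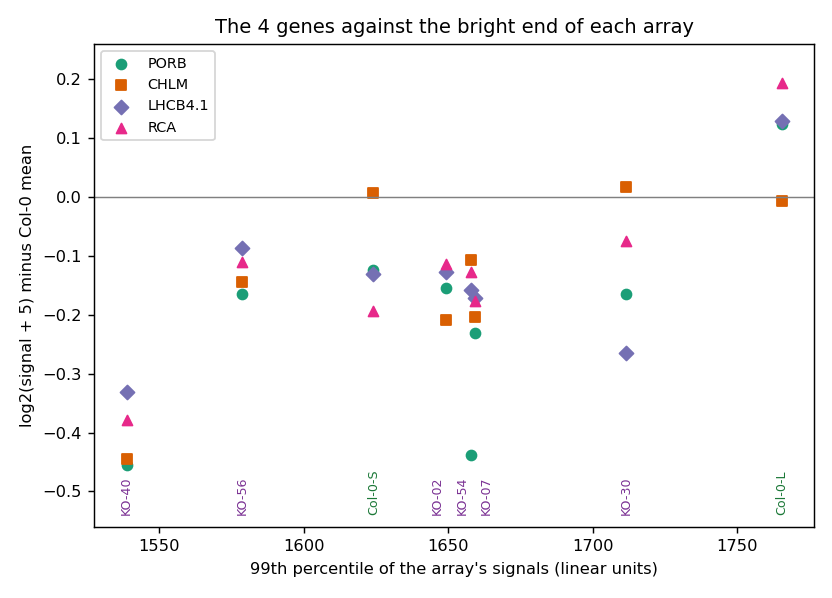
Log2(signal + 5) of each gene minus its Col-0 mean (vertical axis) against the 99th percentile of the array's signals (horizontal axis, linear intensity), 1 point per gene and array. Col-0-L has the highest percentile (1765) and KO-40 the lowest (1539), and all 4 genes are lowest in KO-40.

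Quantile normalization, which gives every array the same distribution of signals, narrowed the differences of PORB, LHCB4.1 and RCA by similar amounts. That of CHLM changed least, and PORB had started from the largest difference (-0.27). The log2 difference of the 6 lines from Col-0 became -0.06 for LHCB4.1 and -0.05 for RCA, against -0.15 for PORB and -0.14 for CHLM. The gap of Col-0-L over Col-0-S closed to 0.02 for PORB and 0.04 for RCA and turned to -0.05 for LHCB4.1. The number of lines below both Col-0 arrays was then 6 for PORB, 6 for CHLM, 4 for LHCB4.1 and 3 for RCA. PORB had means of 2745 ± 29.7 (SD, n = 2) for Col-0 and 2471 ± 181 (SD, n = 6) for the lines on this scale, and CHLM had 967 ± 8.72 and 879 ± 69.6. In KO-40 the differences were -0.25 for PORB, -0.36 for CHLM, -0.03 for LHCB4.1 and -0.11 for RCA, so that CHLM and PORB stayed well below Col-0 there while LHCB4.1 was almost level. The largest LHCB4.1 difference was then that of KO-30 (-0.24), and the largest PORB difference that of KO-54 (-0.32). Whether the bright end reflects the plants or the arrays was not tested.

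**Figure D3:**
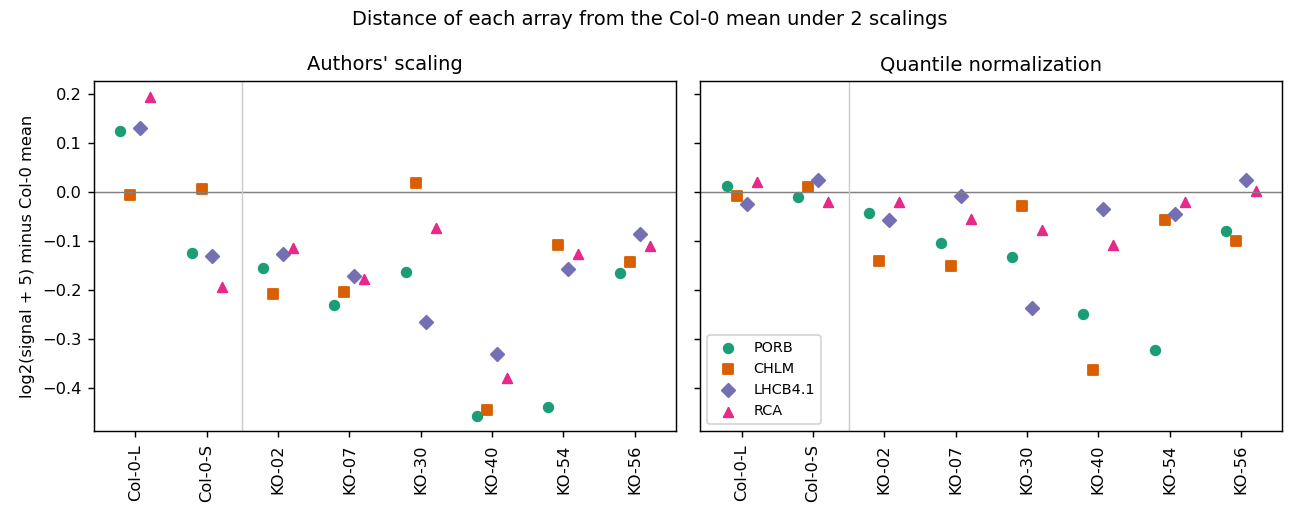
Log2(signal + 5) of the 4 genes on each array minus the Col-0 mean, 1 point per gene and array, under the authors' scaling (left) and after quantile normalization (right). The difference of the 6 lines together shrinks from -0.19 to -0.06 for LHCB4.1 and from -0.16 to -0.05 for RCA, and from -0.27 to -0.15 for PORB and from -0.18 to -0.14 for CHLM.

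RNA quality also differed, mainly in KO-54 and KO-30. For actin, the control signal at the 3' end over that at the 5' end, a ratio that rises with RNA breakdown, reached 29.5 for KO-54 and 15.4 for KO-30, against 8.41 to 12.0 on the other arrays. KO-40, in which the 4 genes were lowest, had the lowest ratio of all. PORB was low in KO-54, CHLM was high in KO-30 and LHCB4.1 was low in KO-30. The part of RNA quality in these values was not tested directly. Without both arrays the log2 difference of the remaining 4 lines from Col-0 was -0.25 for PORB, -0.25 for CHLM, -0.18 for LHCB4.1 and -0.19 for RCA, so all 4 differences kept their sign.

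The Col-0 arrays carried unequal weight in the comparison. Against Col-0-S alone, with Col-0-L left out, the log2 difference of the lines was 0.03 for RCA, -0.06 for LHCB4.1, -0.14 for PORB and -0.19 for CHLM. With Col-0-S left out it was -0.36 for RCA, -0.32 for LHCB4.1, -0.39 for PORB and -0.18 for CHLM. Thus the sign for RCA and most of the size for LHCB4.1 rested on Col-0-L, the CHLM value did not, and PORB was lower against either array.

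The 4 genes rose and fell across the arrays to different degrees together. The points of each correlation are the same 8 arrays, which share their scaling and the bright-end differences given above. LHCB4.1 and RCA had Pearson's r = 0.86 (Spearman's rho = 0.57), PORB and RCA 0.82 (0.55), PORB and LHCB4.1 0.80 (0.69), CHLM and RCA 0.70 (0.48), PORB and CHLM 0.65 (0.55), and CHLM and LHCB4.1 0.52 (0.17). Without the 2 arrays farthest from the median, Col-0-L and KO-40, r was -0.38 for LHCB4.1 and RCA, -0.03 for PORB and RCA, 0.07 for PORB and LHCB4.1 and 0.18 for PORB and CHLM. The high r of these pairs was thus not seen among the remaining arrays. The arrays left out were the extremes of the gene named first. Leaving out extremes narrows the range, which tends to lower r in itself. For CHLM, whose farthest arrays were KO-40 and KO-30, r was then 0.43 with RCA and 0.56 with LHCB4.1. After quantile normalization r was 0.68 for CHLM and RCA, 0.52 for PORB and RCA, 0.45 for PORB and CHLM, 0.44 for LHCB4.1 and RCA, 0.20 for PORB and LHCB4.1 and -0.12 for CHLM and LHCB4.1.

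The probe sets most like each gene over the 8 arrays, among 8749 others paired with a single gene, had r between 0.948 and 0.991. Because they were picked for the highest r among so many over only 8 arrays, high values were to be had in any case. These probe sets are given as a description, and shared regulation was not tested. For PORB they were AT2G26690 (r = 0.974), AT5G17910 (0.968) and GAPC2 (0.967), the last a cytosolic glyceraldehyde-3-phosphate dehydrogenase of glycolysis. For CHLM they were AT5G48490 (0.978), AT1G12845 (0.973) and AT1G29470 (0.964), which like CHLM were highest in KO-30 and lowest in KO-40. For LHCB4.1 they were AT3G14240 (0.991), the thylakoid ascorbate peroxidase gene TAPX (0.949) and AT5G47620 (0.948), and after quantile normalization these values dropped to 0.30, 0.36 and 0.21. For RCA they were AT1G13930 (0.989), AT1G51400 (0.987) and AT2G41090 (0.968), of which AT2G41090 had r = -0.14 after quantile normalization and AT1G13930 0.97.

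The chloroplast-encoded large subunit of Rubisco, rbcL, whose protein Rubisco activase acts on, was measured beside RCA, and no relation between the genes was tested. Its signal was 720 on Col-0-L and 686 on Col-0-S. It was 674 in KO-02, 606 in KO-07, 715 in KO-54, 607 in KO-40, 830 in KO-30 and 497 in KO-56. KO-30 was the highest line for both genes, and KO-07 and KO-40, the lowest lines for RCA, were among the 3 lowest for rbcL. KO-56 was the lowest array for rbcL and the second highest line for RCA.

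Genes that work beside these 4 were read from 5 lists covering chlorophyll synthesis and breakdown, light harvesting, carbon fixation, and the nuclear photosystem and electron transport genes. With the 12 regulators, of which none was paired with a probe set, the lists held 124 genes, and 22 were measured by 1 probe set each, 18 of them besides the 4 genes. Of these 18, 0 were called by limma in any comparison (adjusted p 0.989 to 0.993 for the 6 lines together, smallest unadjusted p = 0.0652). In that comparison 16 of the 18 had a log2 difference below 0, with a median of -0.16, against 52.7% and a median of -0.01 over all 15922 probe sets. After quantile normalization it was 15 of 18 with a median of -0.07, against 53.2% and -0.01 over all. Of the 18, 8 belong to the brightest 1% of probe sets, of which 89.0% were lower, so all probe sets are a poor background for these 8. Every line was below both Col-0 arrays for 4 of the 18 and above both for 0, where 3.1% and 3.13% of all probe sets had these layouts.

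The 7 other chlorophyll synthesis genes all had means below Col-0 in the lines and none passed the test. AT1G74470, geranylgeranyl reductase, which makes the phytol tail of chlorophyll, was 2848 in Col-0-L, 2477 in Col-0-S and 1944 to 2420 in the lines (log2 difference -0.25), the same layout as PORB. CHLI2, a subunit of the magnesium chelatase that acts just before CHLM, had 240 and 237 in Col-0 and ran from 157 in KO-54 to 255 in KO-30 (-0.29). KO-30 was the only line above both Col-0 arrays for CHLI2, as it was for CHLM, HEMB1, HEME1 and HEME2. GSA1, which makes the precursor aminolevulinate, had 326 and 325 in Col-0 and 286 to 320 in the lines, all lower, by -0.07. HEMA2, a glutamyl-tRNA reductase at the entry of the pathway, differed by -0.06 and was 43.0 on the KO-54 array and 44.4 on that of KO-30, against 58.8 to 66.3 on the other 6 arrays. The 4 remaining lines were above both Col-0 arrays for HEMA2, and without KO-54 and KO-30, which had the highest actin ratios, its difference was 0.11 (0.01 without KO-54 alone). HEMB1, HEME1 and HEME2, enzymes of the early porphyrin steps, differed by -0.15, -0.18 and -0.16, and without KO-54 the value of HEME1 was -0.07. Over the 7 genes the median was -0.16, and -0.15 after quantile normalization.

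By line, KO-54 and KO-40 were the lowest for HEMB1, HEME1, HEME2 and AT1G74470, and for the median of the 7 chlorophyll synthesis genes. The other genes differed: GSA1 was lowest in KO-02 and HEMA2 was above Col-0 in KO-40. CHLI2 was lowest in KO-54, followed by KO-07 (179) and KO-40 (181). In KO-54 and KO-40 the median log2 difference was -0.34 in each, with 7 and 6 of 7 lower, and in KO-30 it was 0.06 with 4 of 7 higher. Of all probe sets, 51.8% were lower in KO-54, 51.9% in KO-40 and 54.5% in KO-30. KO-54 was the array with the lowest HEME1 (239, log2 difference -0.73) and CHLI2 (157, -0.59). KO-54 also had the highest actin 3' to 5' ratio, and its part in these values was not tested. NOL, a chlorophyll b reductase and the only measured gene of the chlorophyll breakdown list, was 125 and 133 in Col-0 and 120 to 140 in the lines (0.04, or -0.003 without Col-0-L).

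Of the light-harvesting genes besides LHCB4.1, LHCB4.2 was measured at 4206 in Col-0-L, 3400 in Col-0-S and 3050 to 3574 in the lines, and differed by -0.18, or -0.05 after quantile normalization. LHCB4.3 was at 467 in Col-0-L, 577 in Col-0-S and 470 to 607 in the lines (0.08), and 5 of the 6 lines lay between the Col-0 arrays. Its difference was -0.07 without Col-0-L and 0.23 without Col-0-S, so its sign rested on Col-0-L. These are the other CP29 genes of Arabidopsis. LHCB4.1 and LHCB4.2 are close in sequence, and signal shared between their probe sets was not tested.

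The carbon fixation list gave 3 measured genes besides RCA, whose means in the lines were all below Col-0. SBPASE, the sedoheptulose bisphosphatase of the Calvin cycle, was 1510 and 1413 in Col-0 and 1104 to 1394 in the lines, all lower, by -0.23. AT1G56190 was 833 and 898 in Col-0 and 699 to 829 in the lines, again all lower, by -0.17. PRK, the phosphoribulokinase that makes the substrate of Rubisco, differed by -0.12. RCA thus overlapped with Col-0 where SBPASE and AT1G56190 did not, and the difference between the genes was not tested.

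The 5 nuclear photosystem and electron transport genes, PSAE-1 and PSAN of photosystem I, PSBW and PSBY of photosystem II and the ATP synthase subunit gene ATPC1, resembled LHCB4.1 and RCA. Their log2 differences were -0.15, -0.19, -0.08, -0.20 and -0.13, and their median of -0.15 became -0.05 after quantile normalization. The median was -0.01 without Col-0-L and -0.30 without Col-0-S. Without Col-0-L the sign turned for ATPC1 (0.07) and for PSBW (0.05), and that of PSBW also after quantile normalization (0.02). Each of these 5 genes was highest in Col-0-L.

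Brightness divided the 18 genes in a similar way, in a division made after their values were seen. The 8 genes in the brightest 1% of probe sets were all lower, with a median log2 difference of -0.17, against 89.0% and -0.11 over all 227 probe sets there. Their median became -0.05 after quantile normalization, against -0.01 over the 227, and Col-0-L exceeded Col-0-S by a median of 0.27. Of the 10 dimmer genes, 8 were lower, with a median of -0.16, which became -0.14, and Col-0-L minus Col-0-S was -0.04. PORB, with -0.27 and -0.15, lay among the bright genes and kept a difference larger than their median. CHLM, with -0.18 and -0.14, stood near the medians of the dimmer genes. KO-40 was the lowest line for 15 of the 22 genes, KO-54 for 4, KO-30 for 2 and KO-02 for 1. The 22 include PORB, CHLM, LHCB4.1 and RCA, which were chosen with their values known and were all lowest in KO-40. Over the brightest 1% of probe sets, 91.6% were lower in KO-40 than in Col-0. The share of all probe sets lowest in KO-40 was not counted, so nothing is read from the 15.

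**Figure D4:**
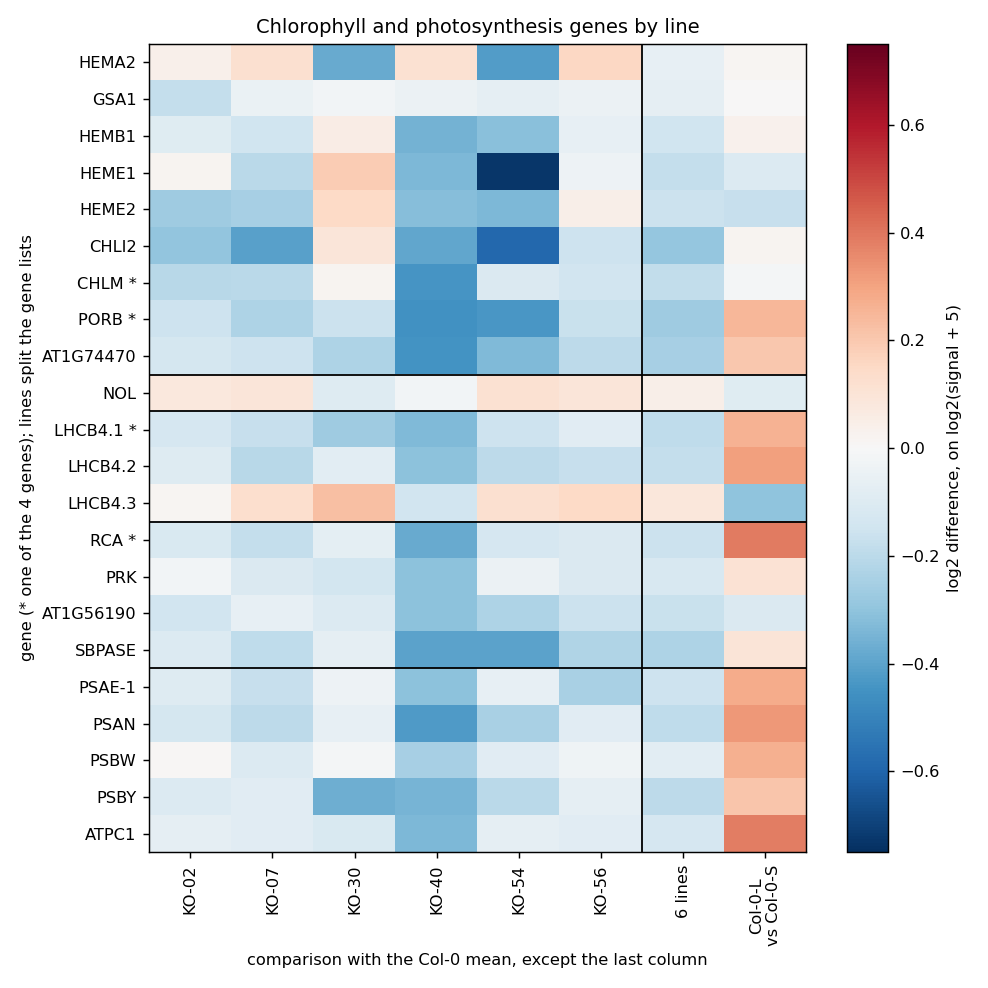
Log2 difference from the Col-0 mean of the 22 measured pathway genes (rows, grouped by list) in each of the 6 lines and in the 6 lines together, with Col-0-L minus Col-0-S in the last column, coloured on a scale centred at 0. KO-40 has 17 of the 18 genes besides PORB, CHLM, LHCB4.1 and RCA below Col-0. In KO-40 51.9% of all probe sets were lower, and 91.6% of the brightest 1%, where 8 of the 18 genes lie. KO-30 has 4 of the 7 other chlorophyll synthesis genes above Col-0, with 54.5% of all probe sets lower.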

How the data were processed

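Total RNA of 8 rosette samples was the starting material for hybridisation to ATH1 arrays, with biotin as the label. The deposited values are probe set intensity values on a linear scale, made by the authors with MAS5 per the submitters' processing notes, with no version named in those notes. They were not rescaled, and 0 columns lacked a sample. After removal of 64 controls from 22810 probe sets, 5 was added to each signal (a pseudocount, near the 20th percentile of signals) before log2, so changes of dim genes are understated. Probe sets above the 30th percentile of the mean log2 value (15922) were kept. The platform annotation pairs 13513 probe sets with 1 gene, 503 with several, and does not list 8730. Names came from the TAIR10.1 gene table, with a match for 13436 of the 13513. The filter kept 8750 of the 13513.

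Differences were fitted over all probe sets with limma 3.58.1 in R 4.3.3 (two-sided tests, called at a Benjamini-Hochberg adjusted p below 0.05). Residual degrees of freedom were 6 for the lines together against Col-0 and 5 for a single line or between the Col-0 arrays. A single array in a comparison is assumed to vary like the others. The fit was tested on simulated data. The 4 genes, the lists and the tests were chosen with earlier results of these data known.

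Genes named were the 4 themselves, the 3 single-gene probe sets with the highest Pearson's r to each, the list genes called or, where fewer, those with the largest differences in each direction, and others chosen after their values were seen. Alternatives were a pseudocount of 1 or 21, dropping the filter or raising it to the median (11373 probe sets), normalizing by quantiles, median centring, trended and robust variances, and arrays left out. The number of arrays limits the precision. Other steps used Python 3.11.15, numpy 2.4.6, pandas 2.3.3 and matplotlib 3.10.9. No sequences or coordinates were used here.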

Additional observations from a re-analysis of the deposited data

Results flagged for a closer look

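Of 39 sets of 6 line values looked at, 7 held a line whose gap to its nearest neighbour was large against the range of the 6. The rule flags about 1 in 20 sets by chance when sets are independent. These sets share arrays, and some genes were chosen by their values or by their likeness to RCA. The count of 7 can therefore not be set against that rate. RCA in KO-40 was one, at 2710 against 3117 to 3347 in the other 5 lines. The ATP synthase gene ATPC1 in KO-40 was another, at 2271, and so was AT1G51400, a probe set that followed RCA, at 1844 in KO-40. GSA1 stood apart in KO-02, at 286. The remaining 3 were RNA quality measures of KO-54, its actin 3' to 5' ratio of 29.5, its GAPDH ratio of 2.46 and its large ribosomal RNA control signal of 979.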

How the results depend on the processing

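The signs of PORB, CHLM and LHCB4.1 for the 6 lines against Col-0 held under every alternative run, with log2 differences from -0.39 to -0.14 for PORB, -0.25 to -0.13 for CHLM and -0.32 to -0.06 for LHCB4.1. That of RCA ran from -0.36 to 0.03 and turned only without Col-0-L, and the cause was not tested. Of the 440 values of the 4 genes over all comparisons and alternatives, 404 moved by less than a pooled SD and 12 turned sign. This SD was pooled within the Col-0 arrays and within the 6 lines, so it includes differences between lines. Many of the 440 values could not move. A changed filter leaves every difference as it was, and a single-line difference does not use the other lines. The 404 are therefore no measure of robustness. For pathway genes, with the 6 lines together against Col-0, 257 of 270 moved by less than this SD, and 8 turned.

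Counts of called probe sets were small and unstable, and for these too the cause was not tested. For the 6 lines together 0 became 1 with trended and robust variances. For KO-54, 11 became 20 with a pseudocount of 1, 7 with one of 21, 0 without the filter and 18 with trended and robust variances, and ran from 0 to 17 with 1 array left out: 0 without Col-0-L, KO-02, KO-07 or KO-40, 1 without Col-0-S and 17 without KO-56. For KO-40, 0 became 4 with a pseudocount of 21 and 1 with trended and robust variances, and ran from 0 to 1 with 1 array left out, with 1 without KO-56. For KO-30, 1 became 2 without the filter. For KO-56, 1 became 0 with a pseudocount of 21, 6 without the filter, 0 with the filter at the median, 0 with trended and robust variances and 0 without KO-54 and KO-30, and ran from 0 to 3 with 1 array left out, with 3 without KO-54 and 0 without any other array. No paired analysis was possible because every title carries the same replicate number.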
